A study of Mus musculus with 6 samples.

Results

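The miRNA genes described here are 9 loci that encode 5 groups of miRNAs enriched in the mature brain: mir-128-1 and mir-128-2, mir-129-1 and mir-129-2, mir-132 and mir-212, mir-137, and mir-218-1 and mir-218-2. They were chosen by name, and all 9 were found among the 898 miRNA genes of the table. Of these, 7 had reads and 2, mir-128-2 and mir-137, were at 0 in both groups. Small RNA was sequenced from mouse E14Tg2a embryonic stem cells (ESCs), an established line, at passage 37 to 40. One group of 3 libraries came from ESCs grown with LIF (leukemia inhibitory factor), the cytokine that holds them in self-renewal. The other 3 came from monolayers of the same line deprived of LIF and given 1 µM RA (retinoic acid) over 48 hours, which the study calls neuronal cells (NCs). LIF withdrawal and RA were applied together, so their effects cannot be told apart.

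A miRNA is a short RNA, cut from a hairpin precursor, that lowers the output of messenger RNAs which pair with its seed, bases 2 to 8 from its 5′ end. miR-128 is abundant in forebrain neurons and restrains neuronal excitability. miR-132 and miR-212 are made from the same primary transcript, which the factor CREB activates in neurons. miR-137 acts in neural stem cell maturation, and miR-218 is a hallmark of motor neurons, with its 2 copies in introns of the axon guidance genes Slit2 and Slit3. miR-129 is a neuronal miRNA that acts on membrane excitability.

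The principal mature sequences, from RefSeq on GRCm38.p6, are shown because reads can be assigned to a locus only as far as these sequences differ. Capitals mark the seed.
miR-128-3p: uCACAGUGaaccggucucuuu
miR-129-5p: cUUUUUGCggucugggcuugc
miR-132-3p: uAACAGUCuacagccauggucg
miR-212-3p: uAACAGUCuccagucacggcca
miR-137-3p: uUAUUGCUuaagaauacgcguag
miR-218-5p: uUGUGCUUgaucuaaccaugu

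miR-132-3p and miR-212-3p share their seed but differ further on, so reads of the pair can be separated. miR-128-3p, miR-129-5p and miR-218-5p are each encoded by 2 loci with an identical mature sequence. The seed of miR-218-5p was also that of miR-7002-3p, and among the 745 of 898 table names with a RefSeq entry no other miRNA had the seed of miR-128-3p, miR-129-5p or miR-137-3p.

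Positions are given on GRCm38, where mir-132, mir-212 and mir-218-2 share chromosome 11. mir-128-1 is at chr1:128202361-128202430 on the plus strand, in an intron of R3hdm1, and mir-128-2 is at chr9:112118636-112118711 on the minus strand, in an intron of Arpp21, each on the strand of its host. mir-129-1 is at chr6:29022619-29022691 on the plus strand, in an exon of the long noncoding RNA Gm3294. mir-129-2 is at chr2:94241364-94241453 on the minus strand, in an intron of Mir670hg, with Mir129b on the opposite strand. mir-212 at chr11:75173388-75173478 and mir-132 at chr11:75173682-75173747 are separated by 203 bases in an intron of 1700016P03Rik, on the plus strand. mir-137 is at chr3:118433857-118433929 on the plus strand, in an exon of the noncoding gene Gm26871. mir-218-1 is at chr5:48223942-48224051, in an intron of Slit2, and mir-218-2 at chr11:35616816-35616925, in an intron of Slit3, both on the plus strand.

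The copies were compared at the level of the hairpin, because mir-128-1 and mir-128-2 had very different values while mir-218-1 and mir-218-2 did not. Capitals mark the mature sequence that each pair shares.
mir-128-1: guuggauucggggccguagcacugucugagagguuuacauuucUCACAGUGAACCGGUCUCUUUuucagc
mir-128-2: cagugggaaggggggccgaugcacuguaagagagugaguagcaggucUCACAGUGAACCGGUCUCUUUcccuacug
mir-218-1: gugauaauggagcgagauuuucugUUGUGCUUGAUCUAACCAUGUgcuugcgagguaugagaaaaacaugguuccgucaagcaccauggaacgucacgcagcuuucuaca
mir-218-2: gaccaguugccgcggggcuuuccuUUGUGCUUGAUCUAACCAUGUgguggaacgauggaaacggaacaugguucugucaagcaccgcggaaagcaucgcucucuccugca

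The longest run of bases shared by the hairpins was 23 for the mir-128 pair, 26 for the mir-129 pair and 22 for the mir-218 pair, against 10 for mir-132 and mir-212. A read of the shared mature sequence fits either copy, and the counting rules for such reads were not given in the sources used here. Values of single copies are therefore uncertain, and values of a pair are not 2 independent measurements.

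The deposited values were the authors' group means, in read counts scaled by a size factor for each library. Whole reads of the single libraries were recovered from these means, and in either group the library with the largest size factor is called A, the next B and the smallest C. They could not be tied to the labelled replicates, and library A of one group is not paired with library A of the other. The size factors ranged from 0.547 to 2.31, and recovered reads from 104323 to 401909 per library, which leaves out the most abundant miRNAs. All 9 loci were resolved in all 6 libraries. Library C stood apart in both groups: of 318 miRNA genes that reached 10 reads in at least 3 libraries, 117 (36.8%) were lower and 111 (34.9%) higher in C than in both A and B, in ESCs and in NCs alike. The labels name no batch. Each comparison is therefore given without and with the depth class of the library (C against A and B) as a covariate. Depth alone does not define this class, since size factors also fell from A to B. The fall was from 1.62 to 0.937 for ESC libraries and from 2.31 to 0.977 for NC libraries, with C at 0.547 and 0.585. The class rests on the deviation of C, and no sample label links ESC C to NC C. The calls of the mir-218 pair below depend on this grouping.

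The labels of the groups were checked against marker miRNAs. Of 11 pluripotency miRNAs of the mir-290 and mir-302 clusters, 6 were tested. All 6 were called lower in NCs without the covariate, beside 5.66% of all miRNA genes tested. Among them mir-302a, mir-302c and mir-302d reached 10 reads in every ESC library but not in every NC library, so the filter favoured that direction. Reads in NC library C were 7, 2 and 9. The authors' mean of mir-10a, which lies in a Hox cluster and responds to RA, was 2136 in ESCs and 754551 in NCs. The 3 loci of miR-124, the defining miRNA of neurons, had authors' means of 2.09 to 2.70 in ESCs and 5.19 to 6.02 in NCs, where 3 reads in every library correspond to 3.51 and 3.17. Of 8 muscle miRNAs, 6 were at 0 in both groups, including mir-1a-1 and mir-1a-2, and their summed level was 5.48 to 28.8 in ESC libraries and 9.54 to 13.7 in NC libraries. The 3 blood miRNAs summed to 339.8 to 1354 in ESC libraries and 47.9 to 519 in NC libraries, nearly all from mir-142, while mir-451a, which defines red cells, had authors' means of 1.74 and 2.27. The 5 liver and gut miRNAs summed to 1012 to 3001 in ESC libraries and 658 to 2457 in NC libraries, nearly all from mir-192, while mir-375 was at 0. Of the 5 marker miRNAs of other cell types that were tested, 0 were called without the covariate, and mir-142 was called lower in NCs with it, with a log2 difference of -1.59 ± 0.26 (SE; limma adjusted p = 0.000546) against -1.90 ± 1.09 without (limma adjusted p = 0.350). The part of such cells in the values below was not tested. In bulk cultures, a change in the share of a cell type and a change in RNA per cell cannot be told apart.

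Which of the 9 loci were present already in LIF was asked first. A locus was called present where every ESC library held more than 3 reads, the limit that a count of 0 allows. By this rule 6 loci were present in ESCs: mir-128-1, mir-129-1, mir-129-2, mir-212, mir-218-1 and mir-218-2. Among all 612 resolved miRNA genes with reads, 49% met the same rule. mir-132 had 3 to 5 reads per ESC library and missed it, but met it in NCs. mir-128-2 and mir-137 had 0 reads in every library, which allows up to 5.48 normalized counts in the shallowest ESC library and 5.13 in the shallowest NC library. For mir-128-2 this limit does not cover reads of the shared miR-128-3p that may have been placed at mir-128-1.

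The levels of the loci are compared as reads per locus, not divided by length, since the mature forms shown above have nearly the same length. In ESCs the authors' means fell in the order mir-129-1 (103), mir-129-2 (97.4), mir-128-1 (80.0), mir-218-2 (65.1), mir-218-1 (65.0), mir-212 (35.4) and mir-132 (3.92). The libraries of neighbours in this order overlapped except between mir-212 and mir-132. In NCs mir-218-1 (231) and mir-218-2 (231) came first, followed by mir-129-1 (92.1), mir-129-2 (91.6), mir-128-1 (71.4), mir-212 (36.7) and mir-132 (9.67). Here mir-128-1 and mir-212 did not overlap, nor did mir-212 and mir-132.

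None of these miRNAs was among the most abundant. By its mean, mir-129-1 ranked 157 of the 549 miRNA genes above 0 in ESCs and mir-132 ranked 364. mir-218-1 ranked 195 in ESCs and 113 of 602 in NCs. In the plot of the group means all 7 detected loci lay far under the most abundant miRNAs, and the mir-218 pair and mir-132 stood above the line of equal means.

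**Figure D1:**
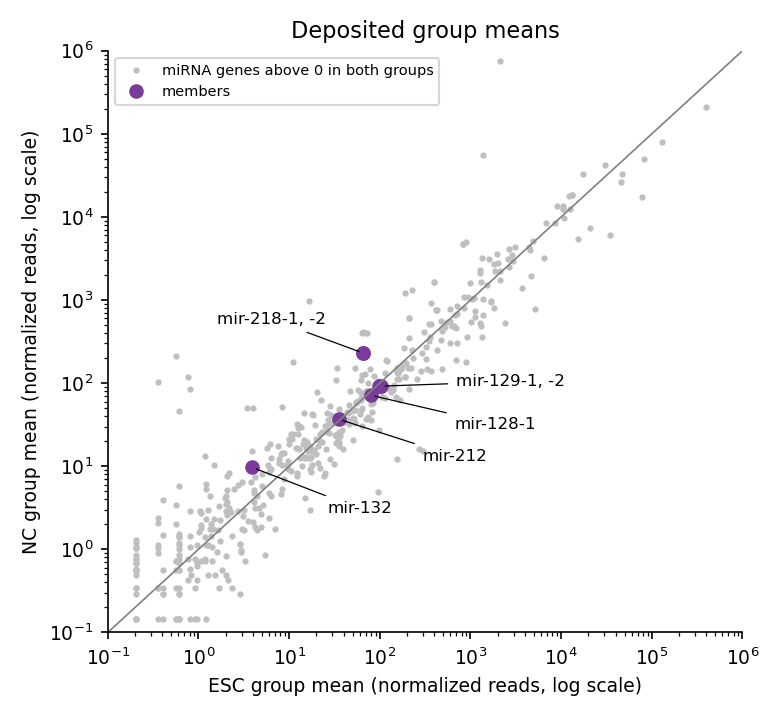
Authors' group mean of each miRNA gene in ESCs (x axis) and NCs (y axis), in normalized reads on log scales, with the line of equal means. The mir-218 loci lay above the line, with means of 65.0 and 65.1 in ESCs and 231 in NCs, as did mir-132, at 3.92 and 9.67, and mir-128-1, the mir-129 loci and mir-212 lay close to it.

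Which loci rose after 48 hours of RA was asked next, by limma-voom on the recovered reads of 318 miRNA genes with Benjamini-Hochberg adjustment. Of the 9 loci, 6 passed the filter on low reads, and 0 of these 6 were called at an adjusted p under 0.05 without the covariate, where 15.7% of all miRNA genes tested were called (10.1% higher and 5.66% lower in NCs). Limma-trend also called 0. At an unadjusted p under 0.05 the count was 1, mir-218-1, higher in NCs, where 26.1% of all tested were under that value and 15.1% were also higher in NCs. With depth class as a covariate, 2 of the 6 were called, mir-218-1 and mir-218-2, both higher in NCs, where 45% of all tested were called (23.6% higher and 21.4% lower). The groups of libraries did not overlap for these 2 loci, against 31.1% of all miRNA genes tested (17% with NCs above and 14.2% with NCs below). The median log2 difference of the 6 loci was 0.22, beside -0.06 over all 318.

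The mir-218 loci were the ones called higher in NCs with the covariate. mir-218-1 had 77.1, 96.0 and 21.9 normalized counts in ESC libraries A, B and C, and 300.0, 289 and 104 in NC libraries A, B and C. mir-218-2 had 80.1, 102 and 12.8 in the ESC libraries, and 305, 284 and 104 in the NC libraries. Every NC library was above every ESC library for both copies, but the margin was narrow, because the lowest NC library, C, lay just above the highest ESC library, B.

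Means ± SD were 65.0 ± 38.5 in ESCs and 231 ± 110 in NCs for mir-218-1, and 65.1 ± 46.7 and 231 ± 110 for mir-218-2 (n = 3 each). The log2 difference of mir-218-1 was 1.65 ± 0.62 (SE) without the covariate, with a limma adjusted p of 0.142, and 1.85 ± 0.17 with it, with a limma adjusted p of 1.03e-05. With the covariate this is a rise of 3.59-fold (95% interval 2.76 to 4.68). For mir-218-2 the log2 difference was 1.76 ± 0.75 without the covariate (limma adjusted p = 0.195) and 1.85 ± 0.21 with it (limma adjusted p = 4.08e-05), a rise of 3.60-fold (2.61 to 4.96). The difference had much the same size in both fits and a smaller standard error with the covariate.

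Library C was low for the mir-218 pair in both groups. For mir-218-1 it was at 0.253 of the mean of A and B in ESCs and at 0.354 in NCs, and for mir-218-2 at 0.140 and 0.355. Within the deeper libraries, the ratio of NCs to ESCs was 3.40 for mir-218-1 and 3.22 for mir-218-2, with limma adjusted p of 4.15e-07 and 7.09e-07 from the 2 deeper libraries of each group, where 50% of all miRNA genes tested were called (28.5% higher and 21.5% lower). In the shallowest libraries, 1 of each group and so without a test, the ratios were 4.76 and 8.16, the latter on 7 ESC reads. The ratio was above 1 within both depth classes, which follows from every NC library being above every ESC library and is no separate result.

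Reads of the mir-218 pair were split almost evenly. mir-218-1 held 49.0% of the reads of both copies in ESC library A (exact binomial 95% interval 42.7 to 55.3) and 49.6% in NC library A (46.9 to 52.3). The largest departure was 63.2% in ESC library C, on 19 reads (38.4 to 83.7). These intervals cover counting error only, and only if each read was counted at 1 copy. Other copies with a shared mature sequence were also nearly equal. In ESC library A, mir-16-1 and mir-16-2 had 19002 and 18991 reads, and mir-26a-1 and mir-26a-2 had 17799 and 17796. Counting a shared read at each copy would give such values, and the intervals would then not apply. The counting rule was not tested. The shared mature sequence shown above cannot place a read in Slit2 or Slit3. The higher level in NCs was called only with the covariate or in the deeper libraries. That difference belongs to the pair and cannot be given to either host gene.

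**Figure D2:**
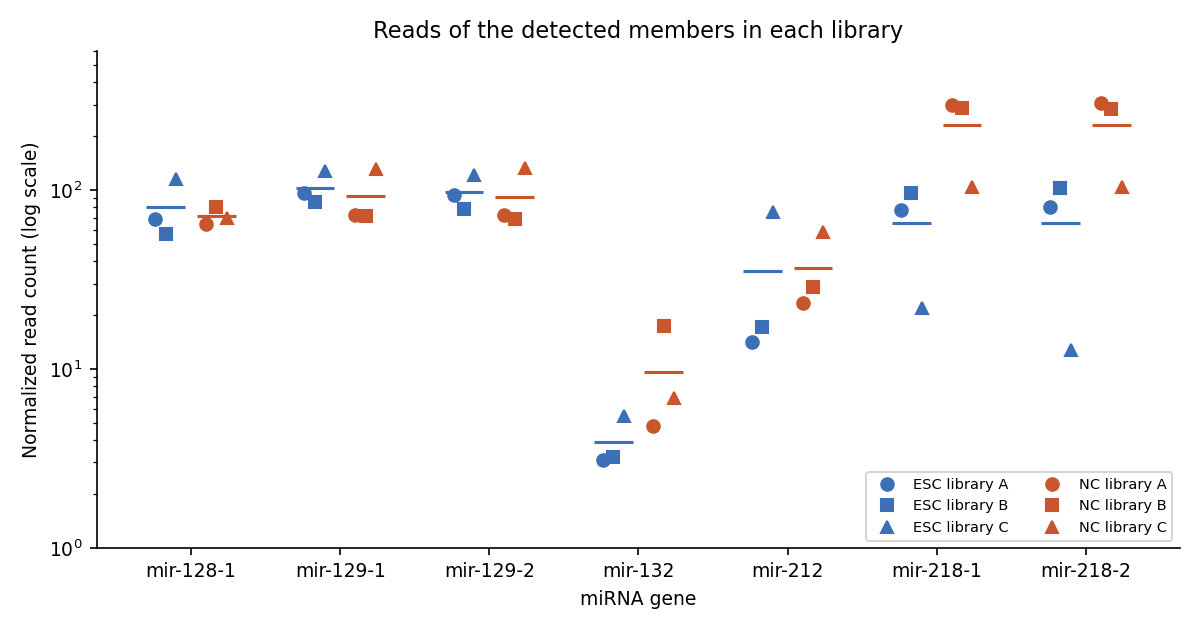
Normalized read count (log scale) of the 7 detected loci in each library: circles, squares and triangles are libraries A, B and C, blue is ESC, orange is NC, and lines are group means. For mir-218-1 and mir-218-2 all 3 NC libraries lie above all 3 ESC libraries, with the triangles lowest in both groups, and for the other loci the groups overlap.

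mir-128-1 was present in ESCs and its groups overlapped. It had 68.4, 56.5 and 115 normalized counts in ESC libraries A, B and C and 64.2, 79.9 and 70.1 in the NC libraries, or 80.0 ± 31.0 against 71.4 ± 7.93 (SD, n = 3 each). ESC library C was the highest of the 6. The log2 difference was -0.05 ± 0.31 (SE; limma adjusted p = 0.935), with a 95% interval from -0.78 to 0.68 on the log2 scale, and a ratio of 0.691 to 1.30 with the covariate. A change of 2-fold lay outside both intervals, and smaller changes in either direction did not.

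mir-128-2, the copy in Arpp21, had 0 reads in every library although it encodes the same miR-128-3p. Among 25 pairs of loci in the table that share a mature sequence in RefSeq and have a mean of at least 10 in either copy, this was the only pair with 1 copy at 0, and in 19 pairs the copies' means were within 10% of each other. Counting a shared read at each copy would give near-equal means, as in those 19 pairs but not in the mir-128 pair. Because the sources used here do not say how such reads were placed or counted, the 0 at mir-128-2 and the reads at mir-128-1 do not show from which locus miR-128-3p was made.

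The mir-129 pair had the highest means of the 9 loci in ESCs, and no difference was called. mir-129-1 had 96.2, 85.3 and 128 normalized counts in ESC libraries A, B and C and 72.8, 71.7 and 131.7 in the NC libraries. mir-129-2 had 93.7, 77.9 and 121 in the ESC libraries and 72.8, 68.6 and 133 in the NC libraries. Library C was the highest of each group, the reverse of the mir-218 pair, and for both copies NC libraries A and B lay below ESC libraries A and B.

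The log2 difference was -0.22 ± 0.32 (SE) for mir-129-1 and -0.15 ± 0.33 for mir-129-2 (limma adjusted p = 0.786 and 0.854). With the covariate it was -0.23 ± 0.15 and -0.16 ± 0.16 (limma adjusted p = 0.267 and 0.436), and the 95% intervals of the ratio ran from 0.672 to 1.08 and from 0.693 to 1.15. mir-129-1 held 49.7% to 52.3% of the reads of both copies in every library. As with the mir-218 pair, the 2 loci are best read as a single measurement.

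The linked loci mir-212 and mir-132 had low and unequal counts. mir-212 had 14.2, 17.1 and 74.9 normalized counts in ESC libraries A, B and C and 23.4, 28.7 and 58.1 in the NC libraries, or 35.4 ± 34.3 against 36.7 ± 18.7 (SD, n = 3 each). Its spread was set by library C, which was 4.79 times the mean of A and B in ESCs and 2.23 times in NCs. The groups overlapped through ESC library C, and in libraries A and B alone both NC values were above both ESC values.

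The log2 difference of mir-212 was 0.48 ± 0.62 (SE; limma adjusted p = 0.735) without the covariate and 0.28 ± 0.28 (limma adjusted p = 0.436) with it. In the 2 deeper libraries of each group it was 0.69 ± 0.30 (limma adjusted p = 0.0709), while in the shallowest libraries the ratio was 0.776. The direction thus was not the same in the 2 depth classes, and no difference was called.

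mir-132 had 5, 3 and 3 reads in ESC libraries A, B and C and 11, 17 and 4 in the NC libraries, or 3.08, 3.20 and 5.48 against 4.77, 17.4 and 6.84 normalized counts. NC library B was far above the other 5, and NC library A was below ESC library C. The ratio of the summed reads, 32 in NCs and 11 in ESCs, to the summed size factors was 2.34 (exact 95% interval 1.15 to 5.14), which covers counting error and not the spread between libraries. mir-132 did not pass the filter on low reads. With no filter its log2 difference was 0.97 ± 0.66 (SE; limma adjusted p = 0.612), and 0.92 ± 0.58 with the covariate added (limma adjusted p = 0.319).

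Although mir-132 and mir-212 are cut from the same transcript, mir-212 had more reads in every library. mir-132 held 17.9% of the reads of the pair in ESC library A (exact binomial 95% interval 6.06 to 36.9) and 6.82% in ESC library C (1.43 to 18.7). In NCs its share was 16.9% in library A (8.76 to 28.3), 37.8% in library B (23.8 to 53.5) and 10.5% in library C (2.94 to 24.8). The intervals of the ESC and NC libraries overlapped, apart from ESC library C and NC library B.

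**Figure D3:**
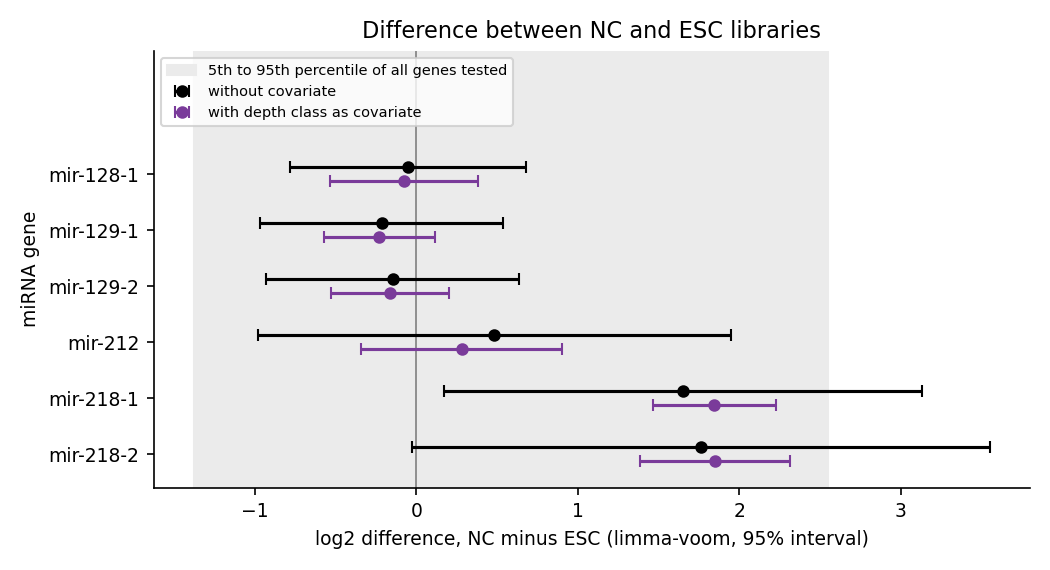
Difference between NC and ESC libraries on the log2 scale (x axis) for the 6 loci tested by limma-voom, without (black) and with (purple) depth class as a covariate; bars are 95% intervals and the grey band holds the 5th to 95th percentile of all 318 genes tested. With the covariate the intervals of mir-218-1 and mir-218-2 lie above 0, at 1.85, and those of the other 4 loci include 0.

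The position of library C was alike in both groups for the mir-218 pair, the mir-129 pair and mir-212, and not for mir-128-1 and mir-132. It was below A and B for the mir-218 pair, and above them for the mir-129 pair and mir-212. mir-128-1 was above A and B in ESC library C, at 1.84 times their mean, and close to them in NC library C, at 0.974. mir-132 was at 1.74 times the mean of A and B in ESC library C and at 0.617 in NC library C, on 3 and 4 reads. In the plot of these deviations the 6 tested loci lay among the other tested miRNA genes.

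**Figure D4:**
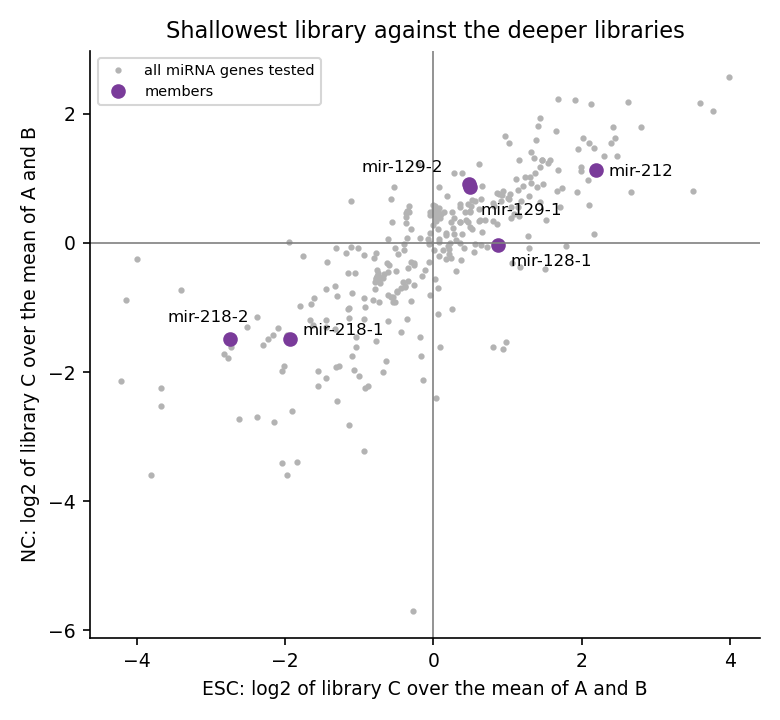
Log2 of library C over the mean of libraries A and B in ESCs (x axis) and NCs (y axis), after adding 1 to each value, for all 318 miRNA genes tested (grey) and the 6 loci (purple). The mir-218 loci lie at the lower left, mir-212 (2.19 and 1.13) at the upper right, and mir-128-1 near 0 in NCs.

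The miRNA genes with the most similar profile over the 6 libraries were found by the root-mean-square difference of centred log2 values among 312 tested genes, as a description. For mir-128-1 they were mir-361 (0.152) and mir-466b-4 (0.216). For mir-129-1 they were let-7i (0.162) and mir-543 (0.175), and for mir-129-2 mir-15b (0.188) and mir-667 (0.189). For mir-212 they were mir-484 (0.259) and mir-149 (0.285).

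The mir-218 pair had less close neighbours. They were mir-199b (0.315) and mir-335 (0.344) for mir-218-1, and mir-384 (0.338) and mir-219a-1 (0.482) for mir-218-2. The authors' mean of mir-335 was 883 in ESCs and 4958 in NCs, and that of mir-199b 5.71 and 16.4. For mir-384 it was 3.89 and 15.1, and for mir-219a-1 10.7 and 21.3. In ESC library C, mir-199b and mir-219a-1 had 1 read each and mir-384 had 0, so their likeness there rests on counts near the floor. These distances combine the difference between groups with the deviation of library C.

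Other miRNAs enriched in brain were taken as a list of 21 loci, of which 20 had reads and 13 were tested. The list was chosen with earlier results of these data known, so its counts are a description and not independent support. Without the covariate 6 were called higher and 0 lower in NCs, and with it 12 were called higher and 1 lower, beside 10.1% and 23.6% of all tested miRNA genes called higher. Those called without the covariate were mir-138-1 and mir-138-2, mir-135a-1 and mir-135a-2, mir-219a-2 and mir-488. In no ESC library did mir-135a-1, mir-135a-2, mir-219a-2 or mir-338, the last called with the covariate only, reach 10 reads. These loci passed the filter through NC libraries alone, so the filter set the direction of their calls. The filter also favoured mir-488 and mir-346, the latter called with the covariate only. They reached 10 reads in every NC library but not in every ESC library. Reads in ESC libraries A, B and C were 15, 3 and 7 for mir-488, and 13, 3 and 15 for mir-346. The 3 loci of miR-9, a regulator of neural progenitors, had log2 differences of 0.90, 0.91 and 0.90 (limma adjusted p = 0.0784 for each) and were called with the covariate only. mir-135b was the 1 locus called lower with the covariate, by -1.33 ± 0.17 (SE; limma adjusted p = 1.04e-04).

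With the covariate, the log2 differences of the 13 tested loci ran from -1.33 for mir-135b to 7.32 for mir-219a-2, which had at most 1 read in any ESC library, and that of each mir-218 locus was 1.85. Differences between loci were not tested. mir-153, another miRNA of neurons, was at 0 in both groups, as was mir-137. The list and the 9 loci both hold gene copies, so the counts overstate the number of separate miRNAs.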

How the data were processed

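miRNA-seq libraries of 3 ESC and 3 NC samples were compared, with groups taken from the sample labels. The submitters' processing notes name the mm10 build and DESeq among what the authors used, without the role of either. The aligner, adapter removal, miRNA annotation and counting rules are not given in the sources used here. The authors deposited signal values, namely the mean over each group of reads scaled by library size factors, and columns of their own comparison (fold change and p-value), which were not used. With 10 decimals, only 1 combination of whole reads in the 3 libraries gives most deposited means, and these reads were found by enumeration. This resolved 538 of 549 miRNA genes above 0 in ESCs and 583 of 602 in NCs, which held 21.9% and 11.2% of the summed signal. The recovery and the fit were tested on simulated data.

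Recovered reads were fitted by limma-voom (limma 3.58.1, R 4.3.3) with the recovered size factors, on miRNA genes that reached 10 reads in at least 3 libraries, with Benjamini-Hochberg adjustment over all 318; an adjusted p under 0.05 was called. Count models other than limma-voom were not run on the recovered reads. All 9 listed loci were named, with the 2 closest profiles for each tested locus. The members and lists were chosen with earlier results of these data known. Per the study's methods, total RNA came from 2 plates of ESC cultures. The labels do not say whether the miRNA replicates were started independently (the study's text calls its mRNA replicates independent). The p-values measure only the spread between these samples, which may be technical. Positions were those of GENCODE M21 (GRCm38), and sequences those of RefSeq (GRCm38.p6), in which 745 of the 898 table names, and all 9 loci, had an entry. Python 3.11.15, numpy 2.4.6, pandas 2.3.3, scipy 1.17.1 and matplotlib 3.10.9 were used. Alternatives covered the filter, scaling, weights, covariate, libraries, threshold, gene copies and pseudocount.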

Additional observations from a re-analysis of the deposited data

How the results depend on the processing

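No paired analysis was possible because no library could be matched to a replicate number. The count of 0 called members stayed at 0 in every fit without depth class, including each fit that left out 1 library (lowest 0, highest 0), and became 2, the mir-218 pair, with depth class as a covariate, in the deeper libraries, and in 2 fits added after the data were seen (limma-trend or no filter, each with the covariate), by 1.85, 1.80, 1.91 and 1.85 for mir-218-1 and 1.85, 1.73, 2.11 and 1.86 for mir-218-2 on the log2 scale. Leaving out 1 library gave 1.26 to 2.16 for mir-218-1 (limma adjusted p 0.0683 to 0.433) and 1.18 to 2.23 for mir-218-2 (0.128 to 0.519).

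mir-128-1 changed sign in the deeper libraries (0.12) and without ESC C, NC A or NC C (0.17, 0.04 and 0.0014; range -0.29 to 0.17), mir-129-2 without NC B (0.062; range -0.41 to 0.062) and mir-212 without ESC A (-0.089; range -0.089 to 0.99); none of these was called. Equal totals of the group means shift every log2 ratio by -0.48, equal totals without mir-10a by 0.44 and median centring by 0.08, the same for every gene, so that ratios near 1 (mir-128-1, the mir-129 pair and mir-212) took either sign and the larger ones (the mir-218 pair and mir-132) stayed above 0 on the log2 scale.

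The 50 miRNA genes called of 318 became 143 with the covariate (all 50 among them), 163 in the deeper libraries, 128 and 142 in the added fits, 30 with at least 10 reads in every library and 23 at an adjusted p under 0.01. Leaving out 1 library gave 8 to 48 (22 without ESC A, 21 without ESC B, 13 without NC A, 8 without NC B and 33 without NC C). For the other brain-enriched loci 6 became 13 in the covariate, deeper-library and added fits and 2 with 10 reads in every library or under 0.01, and ranged from 2 to 6 with 1 library left out (3 without ESC A, 2 without ESC B, 2 without NC A, 2 without NC B and 3 without NC C). The cause was not tested. Presence in ESCs covered 7 loci at 1 read or more per library, and 5 at 10 or more. Depth limits mir-132 and mir-137, for which differences of a few reads were not detectable. The 0 at mir-128-2 depends also on how reads shared with mir-128-1 were placed, which is not given.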
